A study of Homo sapiens with 5 samples.

Results

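The response to interferon was followed through 45 interferon-stimulated genes in MDA-MB-468 cells, in 3 samples with raised FOSL1 and 2 controls. The genes were chosen by name, as antiviral effectors, sensors and signalling genes that interferon induces, and not by any threshold on the measured values. Earlier results of these data were known when they were chosen. All 45 have an entry among the 33538 genes of the expression table, and 40 of them had a mean level, over all 5 samples, of 1 CPM or more (CPM is a gene's share of a sample's UMIs, or unique transcript tags, scaled to a common total). MDA-MB-468 is a cell line long established from a triple-negative breast tumour, and the protein of FOSL1, FRA-1, pairs with JUN proteins to form AP-1, a transcription factor. The samples were HA FOSL1 with its own HA control, and VPR FOSL1 gRNA2 and VPR FOSL1 gRNA3 with a shared VPR control. The labels give all 5 as the same line under the same culture, do not spell out HA or VPR, and do not say whether a sample is a clone or whether it received the 5-FU named for the series. Each group held 1 sample, and all 5 were hashed with antibodies and sequenced as 1 single-cell library of 3′ tags. A difference between 2 samples therefore has no replicate check, and every interval below is a 95% interval of counting error only.

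Type I and type III interferons bind receptors on the cell surface and activate the kinases JAK1 and TYK2. The signal reaches the nucleus through a transcription factor complex that holds STAT2 and IRF9 and binds interferon-stimulated response elements (ISRE) in the promoters of antiviral genes, whereas interferon gamma acts at GAS elements. IRF1, IRF3 and IRF7 can bind ISRE-like elements as well, and many cell lines express part of the programme at a low level without added interferon.

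After filtering, the samples held between 1826 and 4299 cells and between 42058533 and 85556699 gene UMIs. The median cell had 20768.5 UMIs in HA FOSL1, 15401.5 in HA control, 17414.5 with gRNA2, 18121 with gRNA3 and 15810 in VPR control, so shares of positive cells are given after each cell was thinned to 5000 UMIs. FOSL1 stood at 63.5 CPM in HA FOSL1, against 8.96 CPM in HA control, and at 100.5 CPM with gRNA2 and 94.3 CPM with gRNA3, against 8.91 CPM in VPR control. The epithelial markers EPCAM, EGFR and keratins KRT5, KRT7, KRT8, KRT18 and KRT19 summed to 13550 CPM in HA FOSL1 and 8113 CPM in HA control, and to 10713 CPM with gRNA2, 10450 CPM with gRNA3 and 8765 CPM in VPR control. The 10 markers of immune, endothelial and fibroblast cells summed to between 17.0 and 22.2 CPM, most of it CD14, with between 1 and 5 of them at 0 in a sample. Of the receptors that define triple-negative cancer, PGR had no UMI, ESR1 was at 1.6 to 4.87 CPM and ERBB2 at 9.41 to 13.5 CPM. The epithelial markers thus moved with the interferon-stimulated genes in the HA arm, and their part in the result was not tested.

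Interferon-stimulated genes stood higher in HA FOSL1 cells than in their control, while the guide samples lay slightly below theirs in sum and median. The IFIT genes were an exception, with median log2 ratios of 0.53 with gRNA2 and 0.33 with gRNA3. With gRNA2 this came in part from 1 cell. Without the cell of the highest share of the 45 genes in each sample, the gRNA2 ratios were 0.48 for IFIT1, 0.73 for IFIT2, 0.27 for IFIT3 and 0.41 for IFIT5. Together the 45 genes made up 1270 CPM in HA FOSL1 (exact Poisson interval 1259 to 1281), against 968 CPM in HA control (960 to 976). They made up 978 CPM with gRNA2 (969 to 987) and 930 CPM with gRNA3 (924 to 937), against 1018 CPM in VPR control (1008 to 1027). Of the 40 genes at a mean level of 1 CPM or more, 19 were at least 1.5-fold higher in HA FOSL1 than in HA control, where 6.6% of the 12645 genes with a mean level of 1 CPM or more were, and 2 were at least 1.5-fold lower, where 4.67% of all genes were. Over all 45, IFI27 is a further gene past 1.5-fold, which makes 20. Against VPR control in place of HA control, 17 were higher in HA FOSL1. The median log2 ratio over the 45, against HA control, was 0.55, with 37 above 0, against -0.04 over all genes. With gRNA2, 2 genes were higher (1.48% of all genes) and 1 lower (1.27%), with a median of -0.07 against -0.01 over all genes. With gRNA3, none was higher (1.49%) and 3 were lower (1.83%), with a median of -0.17 against -0.02 over all genes. At 2-fold, 8 genes were higher in HA FOSL1 (2.75% of all genes) and 1 lower (1.49%), 2 were higher with gRNA2 (0.403%) and 0 lower (0.269%), and 0 were higher (0.459%) or lower (0.364%) with gRNA3. With a pseudocount of 0.1 in place of 1 the genes lower with gRNA3 numbered 9, where 2.97% of all genes were. The 2 guide arms share the VPR control. Log2 ratios are of CPM + 1, so the ratio of a gene with few UMIs is understated. The log2 changes and differences from the models further below are model estimates and not ratios of CPM + 1.

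**Figure D1:**
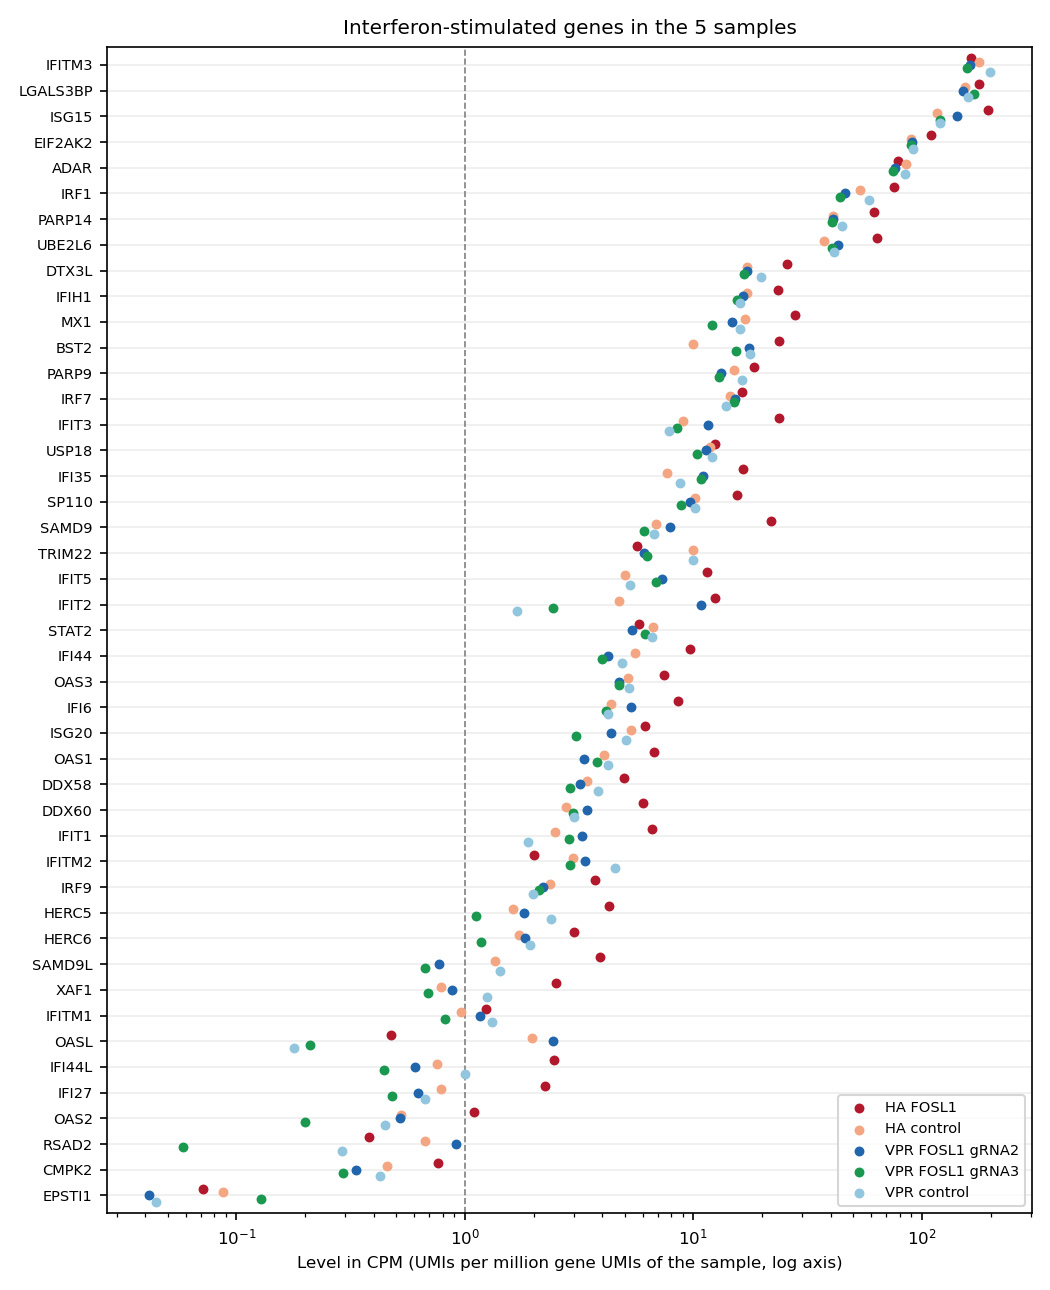
Level of each of the 45 interferon-stimulated genes (vertical axis, ordered by mean) in the 5 samples, in CPM on a log axis, with a dashed line at 1 CPM. HA FOSL1 lies to the right for much of the middle of the list, such as IFIT3 at 23.8 against 9.05 CPM in HA control, while the most abundant gene, IFITM3, lies at 158 to 199 CPM in every sample.

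The promoters of the genes that stood far above HA control are shown because most of the 45 genes share 1 motif there. The windows run from 250 bases before to 50 bases after the start site, from RefSeq on GRCh38.p14, and are written 5′ to 3′ on the gene's strand, with capitals for the ISRE core, GAAA and GAAA with any 2 bases between them, or its reverse complement. They are shown for SAMD9 (chr7:93117930-93118229, minus strand), IFIT3 (chr10:89327747-89328046, plus), BST2 (chr19:17405581-17405880, minus) and IFIT1 (chr10:89392373-89392672, plus), the 4 genes with a window that lay farthest above HA control, for ISG15 (chr1:1013247-1013546, plus), the most abundant gene past 1.5-fold, and for IFITM3 (chr11:320811-321110, minus), which has the motif but was not higher.
SAMD9: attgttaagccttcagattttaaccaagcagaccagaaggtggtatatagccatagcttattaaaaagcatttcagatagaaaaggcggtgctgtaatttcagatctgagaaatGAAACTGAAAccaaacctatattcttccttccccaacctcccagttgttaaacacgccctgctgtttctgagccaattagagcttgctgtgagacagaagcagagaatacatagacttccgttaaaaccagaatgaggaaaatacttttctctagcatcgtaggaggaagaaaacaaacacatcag
IFIT3: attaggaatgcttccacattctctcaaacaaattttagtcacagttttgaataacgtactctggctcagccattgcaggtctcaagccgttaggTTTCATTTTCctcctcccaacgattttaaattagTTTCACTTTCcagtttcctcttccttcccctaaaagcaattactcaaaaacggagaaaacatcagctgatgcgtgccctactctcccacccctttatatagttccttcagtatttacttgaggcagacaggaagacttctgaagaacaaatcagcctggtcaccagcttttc
BST2: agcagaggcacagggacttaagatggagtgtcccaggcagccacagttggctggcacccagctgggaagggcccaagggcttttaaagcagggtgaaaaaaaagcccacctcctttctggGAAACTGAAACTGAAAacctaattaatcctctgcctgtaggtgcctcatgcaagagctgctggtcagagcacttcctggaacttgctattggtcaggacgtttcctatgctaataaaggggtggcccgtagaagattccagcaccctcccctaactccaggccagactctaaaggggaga
IFIT1: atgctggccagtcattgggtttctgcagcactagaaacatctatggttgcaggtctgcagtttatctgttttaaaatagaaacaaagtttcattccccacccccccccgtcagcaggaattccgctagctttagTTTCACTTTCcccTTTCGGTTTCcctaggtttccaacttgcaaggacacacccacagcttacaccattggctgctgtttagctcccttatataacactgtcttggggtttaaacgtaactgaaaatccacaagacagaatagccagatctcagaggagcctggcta
ISG15: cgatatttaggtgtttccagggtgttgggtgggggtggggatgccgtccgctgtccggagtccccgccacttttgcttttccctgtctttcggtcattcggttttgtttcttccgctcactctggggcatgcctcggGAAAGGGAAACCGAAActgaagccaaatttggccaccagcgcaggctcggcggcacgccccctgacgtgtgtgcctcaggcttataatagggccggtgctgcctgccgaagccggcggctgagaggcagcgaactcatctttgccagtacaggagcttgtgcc
IFITM3: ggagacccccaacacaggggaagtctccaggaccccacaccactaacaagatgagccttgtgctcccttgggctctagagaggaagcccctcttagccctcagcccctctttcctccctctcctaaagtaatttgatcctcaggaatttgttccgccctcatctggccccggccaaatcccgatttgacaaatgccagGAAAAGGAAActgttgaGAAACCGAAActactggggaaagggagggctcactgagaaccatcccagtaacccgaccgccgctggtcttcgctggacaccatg
The match begins 136 bases before the start site in SAMD9, 156 and 122 in IFIT3, 130 and 124 in BST2, 116 and 103 in IFIT1, 113 and 107 in ISG15, and 52 and 35 in IFITM3, and the 2 matches of BST2 and of ISG15 overlap. IFIT3 has 2 windows, of which that with the most ISRE matches is shown. A window was found for 38 of the 45 genes, and the ISRE core on either strand, in any window of the gene, was present for 25 of them (65.8%), against 4.38% of all 27305 genes with a window. The GAS motif TTCNNNGAA was present for 12 of 38 (31.6%, against 9.38% of all genes), and the AP-1 motif TGANTCA for 5 of 38 (13.2%, against 9.37%). The median log2 ratio in the HA arm was 0.69 for the 25 genes with the ISRE letters, of which 13 were past 1.5-fold, and 0.56 for the 13 genes without, of which 5 were. The 5 genes with the AP-1 letters were ADAR, IFIT5, MX1, ISG20 and SAMD9L, with HA ratios between -0.11 (ADAR) and 1.06 (SAMD9L). A match of letters is a description of the window and not a measured binding site.

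Among the RNA sensors, DDX60, a helicase of the antiviral response, was the one past 1.5-fold. It stood at 6.04 CPM in HA FOSL1, against 2.77 CPM in HA control (log2 0.90, interval 0.67 to 1.13), and at 3.43 CPM with gRNA2 and 2.98 CPM with gRNA3, against 2.99 CPM in VPR control. HA FOSL1 was the high sample, and the other 4 lay close together. EIF2AK2, which encodes the double-stranded RNA kinase PKR, was the most abundant sensor, with 110.1 CPM in HA FOSL1 against 89.2 CPM in HA control (0.30, 0.24 to 0.36), and 90.6 CPM with gRNA2 and 89.6 CPM with gRNA3 against 91.4 CPM in VPR control. ADAR, the adenosine deaminase that edits double-stranded RNA, went the other way, with 78.4 CPM in HA FOSL1 against 84.9 CPM in HA control, and 76.3 CPM with gRNA2 and 74.4 CPM with gRNA3 against 84.8 CPM in VPR control. It was below its control in all 3 arms, by less than 1.5-fold. The sensors DDX58, which encodes RIG-I, and IFIH1, which encodes MDA5, were both 0.43 higher in the HA arm.

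None of the 4 signalling genes was past 1.5-fold in any arm. IRF1, IRF7, IRF9 and STAT2 lay between -0.17 (STAT2) and 0.48 (IRF1 and IRF9) in the HA arm. IRF1, a transcription factor of the interferon gamma response singled out after its values were seen, differed in direction between the systems. It stood at 75.5 CPM in HA FOSL1, against 53.8 CPM in HA control (log2 0.48, 0.41 to 0.55), and at 46.3 CPM with gRNA2 (-0.33, -0.41 to -0.25) and 43.7 CPM with gRNA3 (-0.41, -0.48 to -0.34), against 58.5 CPM in VPR control. Each of these intervals lies clear of 0.

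The ISG15 conjugation system had 3 of its 5 genes past 1.5-fold in the HA arm. ISG15, the ubiquitin-like protein itself, stood at 195 CPM in HA FOSL1, against 116 CPM in HA control (0.74, 0.70 to 0.79), and at 143 CPM with gRNA2 and 120.2 CPM with gRNA3, against 120.6 CPM in VPR control. Of the 6867 ISG15 UMIs with gRNA2, 1 cell held 664 (9.67%), and the gRNA2 ratio of 0.24 (0.19 to 0.29) was 0.11 without the cell of the highest share of the 45 genes in each sample. UBE2L6, its E2 enzyme, stood at 63.5 CPM against 37.3 CPM in the HA arm (0.75, 0.67 to 0.83), and at 42.8 CPM with gRNA2 and 40.5 CPM with gRNA3 against 41.1 CPM in VPR control. HERC5, its main E3 ligase in human cells, stood at 4.26 CPM against 1.63 CPM in the HA arm (1.00, 0.74 to 1.25), and at 1.81 CPM with gRNA2 and 1.12 CPM with gRNA3 against 2.39 CPM in VPR control. HERC5 was thus high in HA FOSL1 and, with gRNA3, lower than its control by 0.68 (-0.92 to -0.42). HERC6 (0.56) and USP18 (0.07), the protease that removes ISG15, did not reach 1.5-fold.

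All 4 IFIT genes, whose proteins bind foreign RNA and restrain its translation, were past 1.5-fold in the HA arm. IFIT3 stood at 23.8 CPM in HA FOSL1 against 9.05 CPM in HA control (1.30, 1.16 to 1.45), and at 11.6 CPM with gRNA2 and 8.49 CPM with gRNA3 against 7.82 CPM in VPR control. IFIT1 stood at 6.59 CPM against 2.47 CPM in the HA arm (1.13, 0.90 to 1.36), and at 3.25 CPM with gRNA2 (0.55, 0.28 to 0.82) and 2.86 CPM with gRNA3 (0.41, 0.16 to 0.66) against 1.90 CPM in VPR control. IFIT5 stood at 11.5 CPM against 5.03 CPM in the HA arm (1.05, 0.87 to 1.24), and at 7.30 CPM with gRNA2 (0.41, 0.20 to 0.61) and 6.86 CPM with gRNA3 (0.33, 0.14 to 0.52) against 5.27 CPM in VPR control. IFIT1 and IFIT5 were therefore above their control in all 3 arms with intervals clear of 0, although in the guide arms by less than 1.5-fold. IFIT2 stood at 12.5 CPM in HA FOSL1 against 4.73 CPM in HA control (1.23, 1.05 to 1.42), and at 10.8 CPM with gRNA2 (2.12, 1.88 to 2.36) and 2.42 CPM with gRNA3 against 1.70 CPM in VPR control. Its high value with gRNA2 came mostly from 1 cell, described below.

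The IFITM genes, whose membrane proteins block virus entry, were the group that did not follow. IFITM3 stood at 164 CPM in HA FOSL1 against 179 CPM in HA control (-0.13, -0.17 to -0.08), and at 162 CPM with gRNA2 (-0.29, -0.33 to -0.25) and 158 CPM with gRNA3 (-0.33, -0.37 to -0.29) against 199 CPM in VPR control. It was below its control in every arm, by less than 1.5-fold. IFITM2 was likewise below its control in every arm (-0.41, -0.35 and -0.52), and the HA ratio of IFITM1 (0.19, -0.11 to 0.48) was not distinguishable from 0 by counting error. The 3 genes are close copies, so counts can be split between them.

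Of the OAS genes, which make the second messenger that activates RNase L, OAS1 was past 1.5-fold in the HA arm. It stood at 6.73 CPM in HA FOSL1 against 4.05 CPM in HA control (0.61, 0.40 to 0.83), and at 3.31 CPM with gRNA2 and 3.77 CPM with gRNA3 against 4.22 CPM in VPR control. OAS3 (0.45) and OAS2 (0.46, under the 1 CPM floor) were higher by less. OASL, a relative without synthetase activity in humans, stood at 0.476 CPM in HA FOSL1 against 1.96 CPM in HA control (-1.01), and at 2.43 CPM with gRNA2 (1.54) and 0.210 CPM with gRNA3 against 0.179 CPM in VPR control. The 2 high samples owe this to 1 cell each, described below.

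The largest HA ratio among the 45 was that of SAMD9, an antiviral factor that restricts poxviruses. It stood at 21.9 CPM in HA FOSL1 against 6.87 CPM in HA control (1.54, 1.38 to 1.69), and at 7.87 CPM with gRNA2 and 6.10 CPM with gRNA3 against 6.74 CPM in VPR control. Its neighbour and paralog SAMD9L stood at 3.90 CPM against 1.35 CPM in the HA arm (1.06, 0.79 to 1.32), and at 0.770 CPM with gRNA2 (-0.46) and 0.666 CPM with gRNA3 (-0.54) against 1.43 CPM in VPR control. BST2, or tetherin, which holds budding virions at the cell surface, stood at 23.6 CPM against 9.92 CPM in the HA arm (1.17, 1.03 to 1.31), and at 17.5 CPM with gRNA2 and 15.3 CPM with gRNA3 against 17.7 CPM in VPR control. SAMD9 was high in HA FOSL1 alone, whereas SAMD9L was also low in both guide samples, and BST2 was lowest in HA control. For BST2 the 2 controls themselves differed, with VPR control 0.77 above HA control (0.63 to 0.92). For MX1 and ISG20, gRNA3 gave the lowest of the 5 values. MX1, a dynamin-like GTPase that blocks viral ribonucleoproteins, stood at 27.8 CPM in HA FOSL1 against 16.9 CPM in HA control (0.69, 0.57 to 0.80), and at 14.7 CPM with gRNA2 and 12.1 CPM with gRNA3 (-0.38, -0.51 to -0.25) against 16.1 CPM in VPR control. ISG20, an exonuclease, stood at 6.16 CPM against 5.31 CPM in the HA arm, and at 4.35 CPM with gRNA2 and 3.05 CPM with gRNA3 (-0.59, -0.80 to -0.38) against 5.09 CPM in VPR control. The gRNA2 value of ISG20 came in part from 1 cell, and was 3.20 CPM without the cell richest in it.

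TRIM22, a RING-type ubiquitin ligase with antiviral activity, was lower by at least 1.5-fold in all 3 arms, with gRNA3 at the limit itself and short of it (-0.55) with TMM factors. It stood at 5.68 CPM in HA FOSL1 against 9.94 CPM in HA control (-0.71, -0.90 to -0.52), and at 6.06 CPM with gRNA2 (-0.63, -0.82 to -0.44) and 6.29 CPM with gRNA3 (-0.59, -0.75 to -0.42) against 9.94 CPM in VPR control. The 3 FOSL1 samples lay between 5.68 and 6.29 CPM, all below both controls. RSAD2 (viperin) and CMPK2 were under the 1 CPM floor.

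Among the PARP genes and their partner DTX3L, PARP14, an ADP-ribosyltransferase, stood at 61.6 CPM in HA FOSL1 against 40.7 CPM in HA control (0.59, 0.51 to 0.66), and at 41.0 CPM with gRNA2 and 40.3 CPM with gRNA3 against 44.6 CPM in VPR control. PARP14 lay at the 1.5-fold limit itself, with DTX3L (0.55) and SP110 (0.57) just below it. PARP9, which acts in a complex with DTX3L, was 0.27 higher in the HA arm and lower with gRNA2 (-0.29, -0.44 to -0.15) and gRNA3 (-0.32, -0.45 to -0.19).

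Of the other 9 genes, 7 had a mean level of 1 CPM or more, and 5 of these were past 1.5-fold in the HA arm. IFI35 stood at 16.5 CPM in HA FOSL1 against 7.68 CPM in HA control (1.01, 0.85 to 1.17), and at 11.1 CPM with gRNA2 (0.31, 0.14 to 0.48) and 10.8 CPM with gRNA3 (0.28, 0.12 to 0.44) against 8.73 CPM in VPR control. Like IFIT1, IFIT2 and IFIT5, it was above its control in every arm with intervals clear of 0. IFIT3, IRF7 and IRF9 were above their control in every arm too, but with an interval that reaches 0 in a guide arm. IFI6, which protects against cell death, stood at 8.54 CPM against 4.35 CPM in the HA arm (0.83, 0.63 to 1.04), and at 5.35 CPM with gRNA2 and 4.16 CPM with gRNA3 against 4.24 CPM in VPR control. IFI44 stood at 9.63 CPM against 5.56 CPM in the HA arm (0.70, 0.51 to 0.89), and at 4.25 CPM with gRNA2 and 3.97 CPM with gRNA3 against 4.89 CPM in VPR control. IFI44L, its paralog, stood at 2.45 CPM in HA FOSL1 against 0.754 CPM in HA control (0.98, 0.69 to 1.24), and at 0.604 CPM with gRNA2 and 0.444 CPM with gRNA3 against 1.00 CPM in VPR control. With gRNA2, 1 cell held 18 of the 29 IFI44L UMIs. XAF1, a pro-apoptotic antagonist of XIAP, stood at 2.50 CPM against 0.789 CPM in the HA arm (0.97, 0.68 to 1.23), and at 0.874 CPM with gRNA2 and 0.690 CPM with gRNA3 against 1.25 CPM in VPR control. LGALS3BP, a secreted glycoprotein, was abundant and nearly level, with 177 CPM in HA FOSL1 against 155 CPM in HA control (0.19, 0.15 to 0.24), and 151 CPM with gRNA2 and 170 CPM with gRNA3 against 159 CPM in VPR control. IFI27 (0.85 in the HA arm, past 1.5-fold) and EPSTI1 (-0.02) were under the 1 CPM floor.

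**Figure D2:**
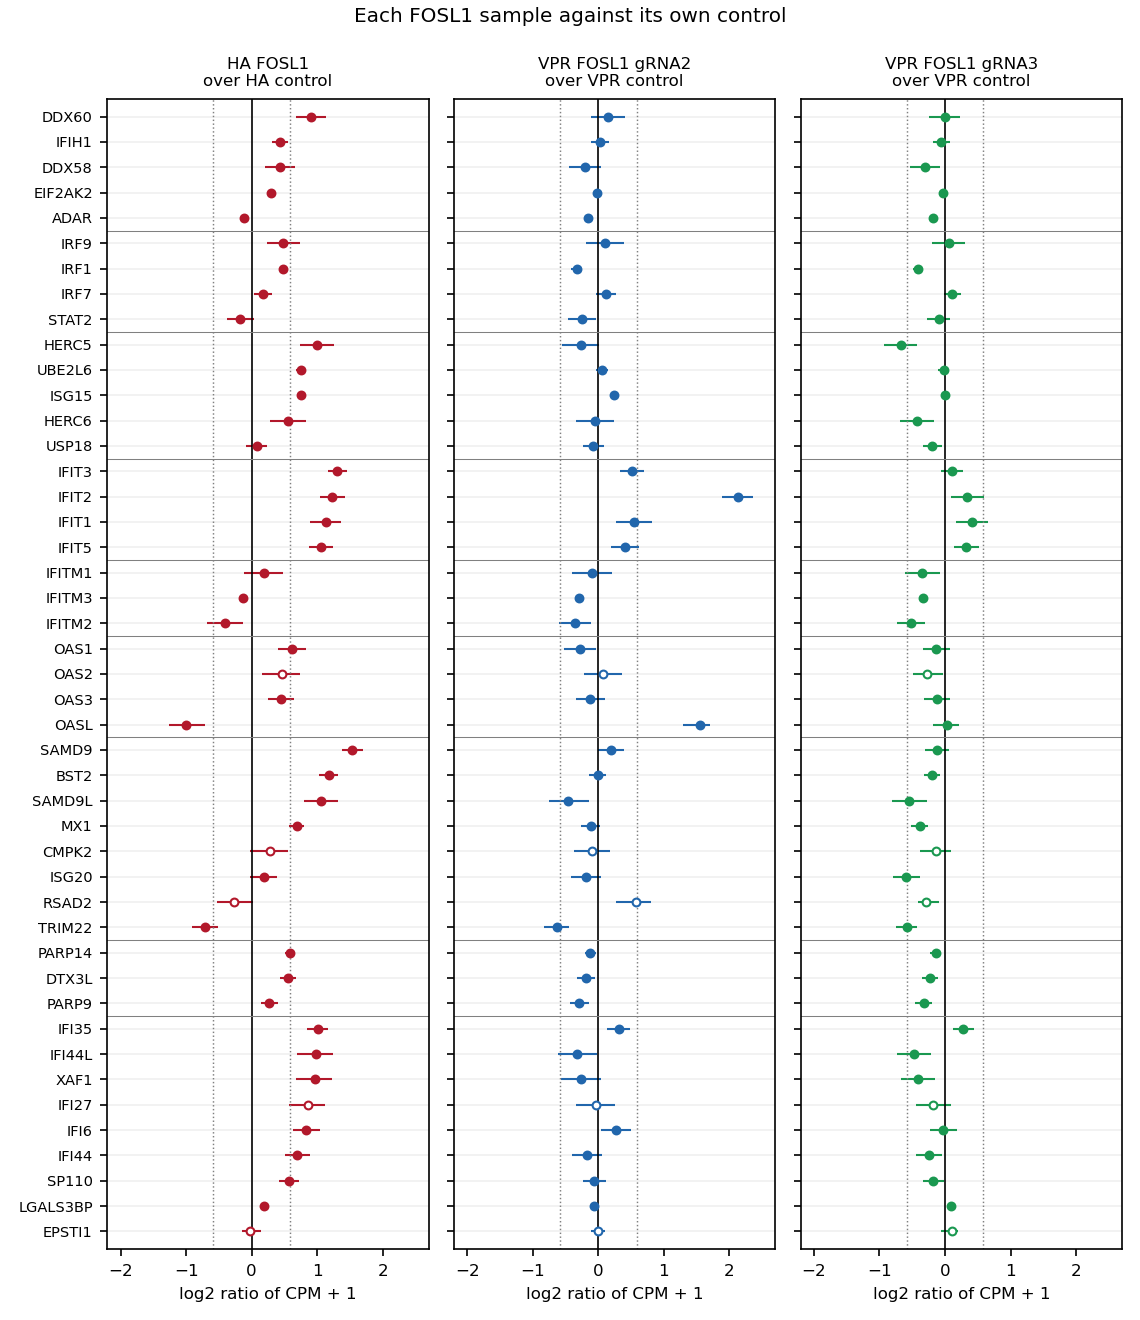
Log2 ratio of CPM + 1 (horizontal axis) of each FOSL1 sample over its own control, with 95% counting intervals, for the 45 genes grouped by role. Dotted lines mark 1.5-fold, and open circles are genes under a mean of 1 CPM. In the left panel 19 genes with filled circles lie beyond the right dotted line, including all 4 IFIT genes, while in the other panels IFIT2 and OASL with gRNA2 are the genes beyond it.

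The differences were also put to models of the summed UMI counts of all 5 samples. When 1 common FOSL1 effect was fitted to the 3 FOSL1 samples, with HA or VPR as covariate (edgeR quasi-likelihood test, 2 residual degrees of freedom), 44 of the 45 genes could be tested and TRIM22 was the 1 called. It fell by 0.71 (SE 0.08, adjusted p = 0.040, lower in 3 of 3 arms), where 0.9% of all 15439 genes were called higher, 0.706% lower and 1.61% in either direction. At an unadjusted p under 0.05 there were 6 higher and 4 lower, 10 of 44, where 26.0% of all genes were. DESeq2 called 5 of 44 (7.48% of all genes, 4.86% higher and 2.63% lower), with IFIT1, IFIT3, IFIT5 and IFI35 higher and TRIM22 lower. TRIM22 was not called by edgeR without gRNA2 or without gRNA3, in which fits no gene of the whole table was and 7 and 10 of the 44 had an unadjusted p under 0.05, against 17.0% and 15.6% of all genes. Over the alternatives its adjusted p ran from 0.00119 to 0.172. Without HA FOSL1, where the 2 guide samples carry the effect and give the only residual degree of freedom, 9 genes were called, where 11.3% of all 15966 genes were, with IFI35, IFIT1 and IFIT5 higher and IFITM2, IFITM3, IRF1, PARP9, SAMD9L and TRIM22 lower.

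A second model tested whether the HA arm and the guide arms differed, by the interaction of system and FOSL1 state. It called 26 of 44 genes (edgeR adjusted p under 0.05), all higher in the HA arm, where 8.37% of all 16071 genes were called higher, 3.81% lower and 12.2% in either direction. BST2 differed by 1.39 (SE 0.13, adjusted p = 4.7e-05), IRF1 by 0.89 (SE 0.08, adjusted p = 4.6e-05), SAMD9 by 1.67 (SE 0.20, adjusted p = 0.00021) and MX1 by 1.02 (SE 0.15, adjusted p = 0.00075). For BST2 the controls themselves differed, with VPR control 0.77 above HA control (0.63 to 0.92) as a log2 ratio of CPM + 1. IFIT1 (adjusted p = 0.073), IFIT2 (0.85) and TRIM22 (0.73) were not called. Without the cell of the highest share of the 45 genes in each sample, or without the 1% of such cells, IFIT2 was called higher in the HA arm, and its adjusted p ran from 9.19e-05 to 1.00 over the alternatives. The spread in this model comes from the 2 guide samples alone (1 residual degree of freedom) and is applied to the HA samples, which have no repeats. DESeq2 called 6 of 40, namely BST2, IRF1, MX1, PARP14, SAMD9 and UBE2L6, all higher, where it called 3.56% of all genes, 2.81% higher and 0.752% lower.

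The higher level in HA FOSL1 was seen from the 10th to the 90th percentile of its cells. After thinning to 5000 UMIs, the cell at the 10th percentile had 3 UMIs of the 45 genes in HA FOSL1 and 2 in HA control, the median cell 6 and 4, and the cell at the 90th percentile 10 and 8. The richest cell had 75 in HA FOSL1 and 163 in HA control. The median was 4 with gRNA2 and 4 with gRNA3, against 5 in VPR control. Leaving out the 3 most abundant genes IFITM3, LGALS3BP and ISG15, the median cell had 3 UMIs in HA FOSL1 and 2 in each of the other 4 samples. At least 6 different genes of the 45 were detected in 32.1% of HA FOSL1 cells against 13.8% of HA control cells, and in 12.9% with gRNA2 and 12.7% with gRNA3 against 17.4% of VPR control cells.

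The shares of positive cells, those with at least 1 UMI of a gene, moved in the same way. Over the 45 genes, the share was higher in HA FOSL1 than in HA control for 38 genes, 23 of them with intervals apart (exact binomial), and lower for 7, 1 of them with intervals apart. Of the 12645 genes at 1 CPM or more, 45.1% had a higher share in HA FOSL1, 13.4% with intervals apart, and 54.6% a lower one, 12.3% with intervals apart. With gRNA2 it was higher for 18 and lower for 27, and with gRNA3 higher for 14 and lower for 31, with intervals apart for no higher gene and for 5 and 8 lower ones. Over the 12645 genes, the share with gRNA2 was higher for 49.3% (4.5% with intervals apart) and lower for 50.4% (3.88%), and with gRNA3 higher for 46.4% (5.73%) and lower for 53.3% (6.48%). IFIT3 was found in 10.1% of HA FOSL1 cells against 3.39% of HA control cells, and in 4.38% with gRNA2 and 3.8% with gRNA3 against 3.36% of VPR control cells. SAMD9 was found in 9.30% of HA FOSL1 cells against 3.5% of HA control cells, BST2 in 11% against 4.43%, and ISG15 in 55.8% against 40.9%. Each of these genes was thus found in more HA FOSL1 cells. IFIT2 was found in 5.61% against 0.921% of cells in the HA arm, but in 1.58% with gRNA2 and 1.12% with gRNA3 against 1.12% in VPR control. TRIM22 was found in 2.75% of HA FOSL1 cells against 4.96% of HA control cells, and in 3.27% with gRNA2 and 3.33% with gRNA3 against 5.57% of VPR control cells. Without thinning the IFIT3 shares were 34.4% in HA FOSL1 against 10.1% in HA control, and 14.4% with gRNA2 and 13.6% with gRNA3 against 11.6% in VPR control. The line holds no other cell type to serve as background. With 5% of a cell's UMIs taken as free RNA of the shared pool, 0.22% of cells would show IFIT3 and 4.53% ISG15.

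**Figure D3:**
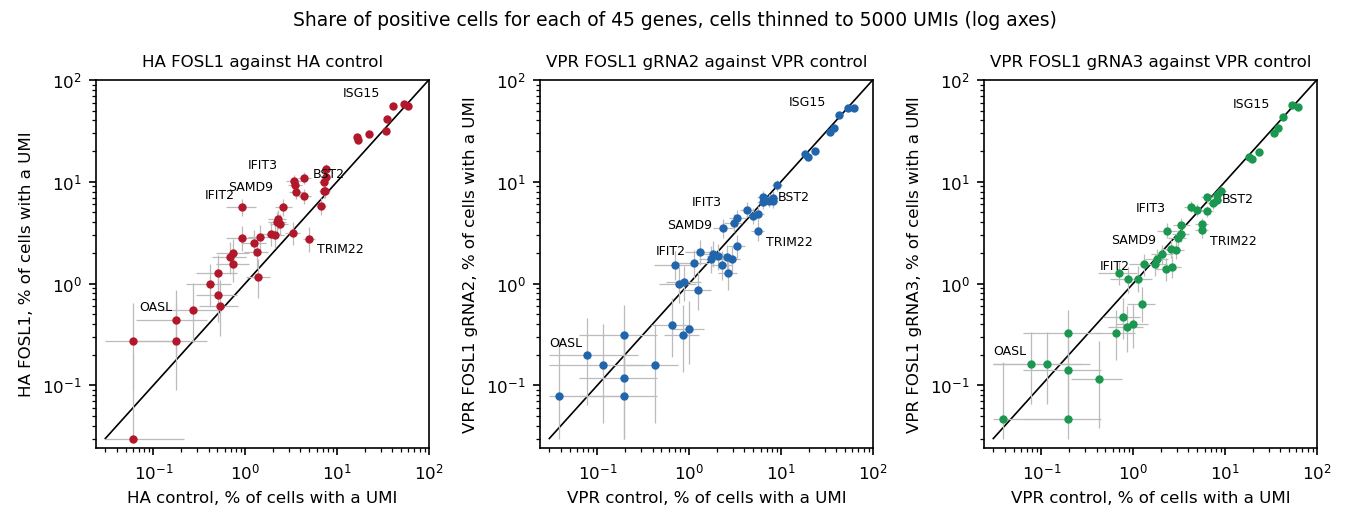
Share of cells with a UMI of each of the 45 genes, in percent, in the FOSL1 sample (vertical axis) against its control (horizontal axis), for cells thinned to 5000 UMIs, on log axes with exact 95% binomial intervals. A gene with no positive cell is drawn near the lower edge. In the HA panel 38 genes lie above the line of equality, against 18 with gRNA2 and 14 with gRNA3.

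For the 19 genes past 1.5-fold in the HA arm, which these levels chose, the share of positive cells was higher in HA FOSL1 for all 19, for 16 with intervals apart, and its ratio had a median of 2.15. The UMIs per positive cell had a median ratio of 1.06. At the levels of most of these genes, a positive thinned cell would mostly hold 1 UMI. The ratio of UMIs per positive cell therefore had little room to move, and the share ratio largely repeats the level ratio. These 2 ratios cannot tell more expressing cells from more transcripts per cell. When the 1% of cells with the most UMIs of the other 44 genes were left out of each sample, 17 of the 19 stayed past 1.5-fold, and the median log2 ratio over the 45 was 0.55. The exceptions were OAS1 (0.49) and IFI44L, which turned to -0.37 in these thinned cells but stood at 0.42 in the summed UMIs without the 1% of cells of the highest share of the 45 genes, so its sign depends on how the cells are left out. IFI44L had 89.5% of its thinned UMIs in HA FOSL1 in strongly positive cells, defined next by a count that includes IFI44L itself. Without the top 10% of cells the median was still 0.53.

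A strongly positive cell was defined as one with at least 10 different genes of the 45 at 5000 UMIs, the lowest number that no more than 1% of control cells reached (33 of 5954 control cells, 0.554%). There were 59 such cells among 1818 in HA FOSL1 (3.25%, 2.48% to 4.17%), against 16 of 3367 in HA control (0.475%, 0.272% to 0.771%). There were 8 of 2537 with gRNA2 (0.315%, 0.136% to 0.620%) and 21 of 4289 with gRNA3 (0.490%, 0.303% to 0.747%), against 17 of 2587 in VPR control (0.657%, 0.383% to 1.05%). They were more frequent in HA FOSL1, yet held 10.3% of its UMIs of the 45 genes. The remaining cells averaged 6.01 such UMIs in HA FOSL1 and 4.72 in HA control, and 4.62 with gRNA2, 4.56 with gRNA3 and 5.03 in VPR control. In HA FOSL1 the strongly positive cells had a median of 20016 UMIs against 20852 in the rest, and 9.97% against 9.80% mitochondrial UMIs. Of the UMIs of single genes in HA FOSL1, they held 42.6% for IFIT1, 38.9% for IFI6, 27.2% for MX1, 15.9% for IFIT3, 11.8% for SAMD9 and 7.46% for UBE2L6. Each gene itself counts toward the 10 that define these cells, so the definition raises such shares.

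**Figure D4:**
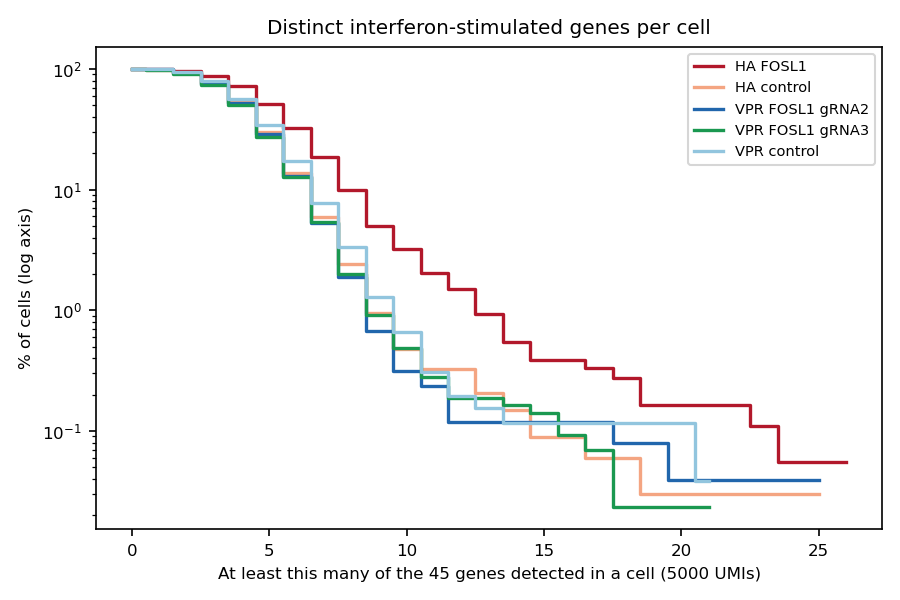
Share of cells, in percent on a log axis, in which at least the given number of the 45 genes (horizontal axis) was detected at 5000 UMIs, for the 5 samples. The curve of HA FOSL1 leaves the others at low numbers already and lies at 32.1% for at least 6 genes and at 3.25% for at least 10, where the other 4 samples lie between 0.315% and 0.657%.

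Within HA FOSL1, cells with a FOSL1 UMI did not carry more of these transcripts, although a cell without one at this depth may still express FOSL1. The 378 cells with a FOSL1 UMI at 5000 UMIs averaged 6.24 UMIs of the 45 genes and the 1440 cells without one 6.55, with a median log2 ratio of -0.14 over the genes. Both parts had a median of 6, against 4 in HA control. With gRNA2 the means were 5.03 and 4.70, and with gRNA3 4.61 and 4.65. IFIT2-positive cells of HA FOSL1 had IFIT3 in 20.6% (13.2% to 29.7%) against 9.44% of IFIT2-negative cells, so most cells positive for one gene showed no UMI of the other at this depth.

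In contrast, single cells set the values of IFIT2 and OASL in 2 samples. With gRNA2, 1 cell held 352 of the 517 IFIT2 UMIs (68.1%) and 97 of the 117 OASL UMIs (82.9%). Without it IFIT2 was at 3.43 CPM, and without the 2 richest cells at 2.62 CPM, against 1.70 CPM in VPR control. In HA control, 1 cell held 107 of 270 IFIT2 UMIs (39.6%) and 92 of 112 OASL UMIs (82.1%). Without the cell richest in OASL in each sample, OASL was at 0.404 CPM in HA FOSL1 and 0.351 CPM in HA control, so the lower OASL of the HA arm rests on that 1 control cell. The cell with gRNA2 had 35731 UMIs, of which 4.80% were of the 45 genes and 0.143% mitochondrial, and the cell of HA control had 20133 UMIs with 3.08% and 1.18%. The sample medians of mitochondrial UMIs were 10.6% and 11.5%. Both cells carried UMIs of the chemokine CCL5, a gene singled out after its values were seen, with 457 and 61. Other genes with gRNA2 also had many UMIs in 1 cell, such as IFI44L (18 of 29), ISG20 (55 of 209) and IFIT3 (100 of 557). Without the cell of the highest share of the 45 genes in each sample, the gRNA2 ratio of IFI44L was -0.66, against -0.32 with it. That of ISG20 was -0.53, against -0.19.

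**Figure D5:**
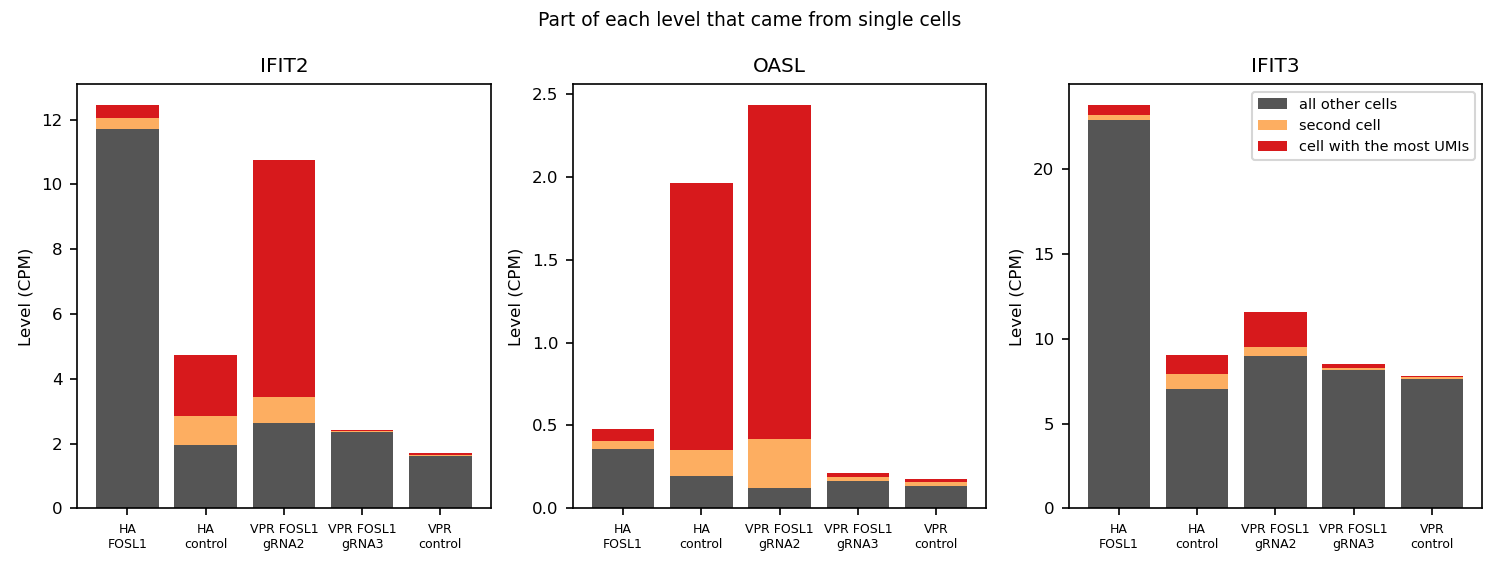
Level of IFIT2, OASL and IFIT3 in each sample, in CPM from 0, split into the cell with the most UMIs of that gene (red), the second such cell (orange) and all other cells (grey). The red part makes most of IFIT2 with gRNA2 and of OASL with gRNA2 and in HA control, and little of any gene in HA FOSL1.

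Of 28 further genes of interferon sensing and signalling, 23 had a mean level of 1 CPM or more, and in the HA arm 1 of the 23 was past 1.5-fold higher and 2 lower, against 6.6% and 4.67% of all genes. SOCS3, a feedback inhibitor of JAK kinases, stood at 4.83 CPM in HA FOSL1 against 2.26 CPM in HA control (0.84), its relative SOCS1 at 7.37 against 12.8 CPM (-0.72), and IFNGR1, a chain of the interferon gamma receptor, at 87.3 against 132 CPM (-0.59). No gene of the list was past 1.5-fold in either guide arm. The interferon genes IFNB1 and IFNL1 were at most at 0.104 CPM in any sample.

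Further genes known to be induced by interferon were higher in the HA arm as well. Of 31 such genes, 23 had a mean level of 1 CPM or more, and 8 of these 23 were at least 1.5-fold higher and none lower, against 6.6% and 4.67% of all genes. IFI16 and RTP4, under that floor, were past 1.5-fold too, and the median over all 31 was 0.45. The 8 were GBP3 (37.9 CPM in HA FOSL1 against 16.8 CPM in HA control, 1.13), SP100 (43.3 against 22.7 CPM, 0.90), GBP1 (60.2 against 34.0 CPM, 0.81), PSMB9 (111 against 65.0 CPM, 0.76), GBP2, TDRD7, APOL6 and TRIM25. In the guide arms none was past 1.5-fold, with medians of 0.01 with gRNA2 and -0.03 with gRNA3. GBP1 stood at 24.3 CPM with gRNA2 and 27.6 CPM with gRNA3 against 32.3 CPM in VPR control.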

How the data were processed

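The deposited UMI counts per gene and barcode came from 1 pool of 5 hashed MDA-MB-468 samples, made by the authors with Cell Ranger (version 4 per the file headers) on hg38 per the submitters' processing notes. Of the annotation, no version is given in the sources read for this work. The authors' deposited table assigns each called cell to a hashtag with a probability, a fraction that was at least 0.900 for every assigned cell. Its hashtags named GOF were taken as the HA samples, because the labels hold 1 other control and 1 other FOSL1 sample. The protocol in the labels names a pool of 6 stained samples and about 16000 loaded cells, whereas the table holds 5 samples and 21228 called cells. Of these, 15371 (72.4%) were assigned to 1 sample. Cells called Multiplet (5181) by the hashtags, Blanks (274) or Unassigned (402) were left out, and no doublet caller was run, so doublets within a sample remain. Cells with at least 1500 genes and at most 20% mitochondrial UMIs were kept (14642). With 1 library there are no barcodes shared between libraries.

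UMIs were summed per sample and divided by the sample's gene UMIs to give CPM, and the floor was a mean of 1 CPM over the 5 samples. Intervals (95%) are exact Poisson for levels, exact conditional binomial for ratios and Clopper-Pearson for shares, and cover counting error only. A count of 0 allows up to 3 counts, or 0.0351 to 0.0713 CPM. For shares, each cell was thinned to 5000 UMIs (seed 11), which left out 5 to 13 cells per sample. Free RNA was measured in 48909 barcodes with 10 to 100 UMIs, in which the 45 genes summed to 979 CPM. The summed counts were tested with edgeR's quasi-likelihood test (version 4.0.16, TMM factors, Benjamini-Hochberg adjustment over all genes tested), with DESeq2 1.42.0 as alternative. The SE is the log2 change divided by the square root of F. With 1 sample per group, p-values measure the spread between these samples, which are not repeats of 1 condition. On simulated counts the FOSL1 effect model recovered 33, 46, 50 and 50 of 50 genes changed by log2 0.25, 0.5, 1 and 2 among 15444 genes, and the interaction model 6, 31, 46 and 50 of 50 among 15887. They also called 11 and 3 unchanged genes. The simulated spread between samples was log2 0.0495, taken from abundant genes of the 2 controls. For the FOSL1 effect all 3 FOSL1 samples got the same change, so recovery of genes that differ between arms was not tested. Older symbols were used for STING1 and SHFL, and DDX58 is RIGI in RefSeq. Values in each sample are printed for members at the floor that lie at least 1.5-fold apart in any arm and for the 5 most abundant members. The members and lists were chosen with earlier results of these data known. Alternatives changed the fold, floor, pseudocount, scaling, cell filter, depth, control, tool and samples. Python 3.11.15, numpy 2.4.6, pandas 2.3.3, scipy 1.17.1, matplotlib 3.10.9 and R 4.3.3 were used. 1 gene of the pathway list is not reported here.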

Additional observations from a re-analysis of the deposited data

Results flagged for a closer look

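The HA arm and the guide arms differed for 26 of the 44 genes tested in the interaction model (edgeR adjusted p under 0.05), all higher in the HA arm, where 12.2% of all genes were called in either direction. The log2 difference, the HA arm minus the guide arms, was 2.7 for IFI44L, 2.56 for SAMD9L, 2.39 for XAF1, 2.17 for HERC5 and 1.84 for IFI27, all at low levels. It was 1.67 for SAMD9, 1.39 for BST2 (where VPR control was itself 0.77 above HA control), 1.09 for IFIT3, 1.07 for IFI44, 1.06 for DDX60 and 1.02 for MX1. It was 0.99 for OAS1, 0.89 for IRF1, 0.89 for DDX58, 0.86 for IFI6, 0.82 for DTX3L, 0.80 for IFIT5 and 0.80 for IFI35. It was 0.78 for SP110, 0.77 for UBE2L6, 0.75 for PARP14, 0.69 for OAS3, 0.65 for ISG15, 0.64 for PARP9, 0.49 for IFIH1 and 0.35 for EIF2AK2. These differences are between 1 HA pair and 2 guide samples with a shared control, so the HA system and its single sample cannot be told apart.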

How the results depend on the processing

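Of 147 values under an alternative, 100 stayed within 1.5 times, or the counting interval, of the value reported. The median log2 ratio of the 45 genes in the HA arm stayed between 0.45 (against the control of the other system) and 0.65 (mean over thinned cells). The 19 genes higher in the HA arm became 8 at 2-fold, 12 at a floor of 5 CPM and 3 at 20 CPM. In every arm a higher floor leaves fewer of the 45 genes to count, which by itself lowers such counts. Shares over all genes were not taken at those floors. The 2 lower became 1 at 2-fold, at 5 CPM, by the mean over thinned cells, without the richest cell and without the richest 1% of cells, and 0 at 20 CPM. The difference in strongly positive cells in the HA arm (2.77 points) became 9.40 with no thinning, 1.80 at 2500 UMIs and 7.58 with a limit of 5% of control cells, and that of the median UMIs per cell (2) became 11 with no thinning. With gRNA2, the 2 higher became 1 at 5 CPM, without the deepest 10% of cells, without the richest cell and without the richest 1%, 0 at 20 CPM and 4 by the mean over thinned cells. Without the richest cell that gene was IFIT2 (0.73), and without the richest 1% it was IFIT1 (0.66), which was not 1 of the 2. The 1 lower became 0 at 2-fold and at 20 CPM, 3 at a pseudocount of 0.1 and without the richest cell, 2 without the deepest 10% and without the richest 1%, and 4 by the mean over thinned cells. Its median (-0.07) became -0.0055 against the other control, and its median without the top 1% of cells (-0.12) became -0.13 without the top 5%. Its difference in strongly positive cells (-0.342 points) became -1.43 with the 5% limit and -0.609 by summed UMIs. With gRNA3, the 3 lower became 0 at 2-fold and at 20 CPM, 1 at 5 CPM, with TMM factors and with all assigned cells, 9 at a pseudocount of 0.1 and 6 by the mean over thinned cells. Without the richest 1% of cells 1 was higher with gRNA3, namely IFIT1 (0.65). Its difference in strongly positive cells (-0.168 points) became -0.445 at 2500 UMIs and -1.34 with the 5% limit. The 1 gene called for the FOSL1 effect became 5 with DESeq2 (7.48% of all genes) and 8 with no filter on low counts, where 1984 of all 23639 genes were called. The number was 2 without the richest 1% of cells (253 of all 15406 genes), and between 0 and 9 when 1 FOSL1 sample was left out. The 26 called for the interaction became 6 with DESeq2. The settings without the richest cell or the richest 1% of cells and without HA FOSL1 were chosen after the data were seen. Except where a setting removes genes, cells or samples, the cause was not tested. No paired analysis was possible because each group holds 1 sample. Depth limits the genes under the 1 CPM floor, namely IFI27, OAS2, RSAD2, CMPK2 and EPSTI1.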

Other observations

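IFI16, a nuclear DNA sensor under the 1 CPM floor and singled out after its values were seen, stood at 2.31 CPM in HA FOSL1 against 0.386 CPM in HA control (log2 1.25, 0.98 to 1.48), and at 0.125 CPM with gRNA2 and 0.117 CPM with gRNA3 against 0.290 CPM in VPR control. GBP2 was likewise higher in the HA arm (0.68) and lower with gRNA2 (-0.49, -0.74 to -0.25) and gRNA3 (-0.44, -0.65 to -0.23).

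The cells richest in transcripts of the 45 genes were of different kinds. The first cell of HA FOSL1 had 306 such UMIs among 19518, with 87 of ISG15, 24 of MX1 and 12 of IFI44L but 1 of IFIT2, and 6.12% mitochondrial UMIs. The second cell with gRNA2 had 209 such UMIs among 7415, with 39 of IFIT2, 18 of CXCL10, 18 of CCL5 and 5 of the interferon gene IFNL1, and 0.256% mitochondrial UMIs. In HA control the third cell had 51 IFIT2 UMIs and 2.68% mitochondrial UMIs. The low mitochondrial share of the IFIT2-rich cells was seen after the fact in 4 cells and was not tested.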
